A study of Mus musculus with 2 samples.

Results

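The regions described here are peaks of Notch1 chromatin binding that lie at GC-rich promoters from which protein-coding transcription is annotated in 1 direction. They were taken from the deposited peak list by position and by base composition alone. A peak belonged if it reached within 1 kb of where a transcript of a protein-coding gene starts (GENCODE M21, any transcript of the gene, called a coding start site below), if all such start sites lay on the same strand, and if the mm10 sequence of the peak was 55% GC or more. Of 5910 peaks on nuclear chromosomes, 1173 lay at promoters and 430 met the rule, which is 36.7% of promoter peaks (Wilson 95% interval 33.9 to 39.5). The other promoter peaks were 635 of one direction with a lower GC content and 108 at divergent promoters, where coding start sites lie on both strands. The study examined where ICN1, the intracellular part of Notch1, binds. Its chromatin came from primary thymic gamma delta T cells. The mice were of the C57BL/6 strain, wild type, and aged postnatal day 0 to 3. Of the series' samples, 1 was precipitated with a rabbit monoclonal antibody against Notch1 (D1E11) and 1 was input without antibody, and the input is not analysed here. The number of animals behind the library and the way the cells were isolated are not stated in the labels. There was no replicate of the Notch1 library, so intervals and tests below compare its peaks with one another, peaks are not replicates, and the read depth is unknown.

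Notch1 is cleaved when it meets a ligand on a neighbouring cell. The freed intracellular part has no DNA-binding domain of its own and reaches DNA through RBPJ, which reads the core TGGGAA, and it recruits co-activators of the Mastermind family. GC-rich promoters usually coincide with CpG islands, stretches in which the dinucleotide CpG has not been lost, and many of them belong to genes active in most cell types or to regulators of development and signalling. The score printed with each peak is the authors' own, with no unit stated, and serves here only to rank and describe peaks within the list.

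Sequences are shown first for members that hold a longer RBPJ consensus, YGTGRGAA, a fuller form of the site that RBPJ is known to read, in which Y is C or T and R is A or G. The windows below are of 30 bases from the mm10 genome (GRCm38) for the 8 members of highest score that held such a site. Each is written 5′ to 3′ on the strand that reads the consensus, and capitals mark it.
Smox, first site, chr2:131509621-131509650, plus strand: gccgcagtcagTGTGAGAActccagttcaa
Smox, second site, chr2:131509907-131509936, minus strand: accgccaacgcTGTGAGAAgctagcaaaca
Tpp2, chr1:43933768-43933797, minus strand: ctgtcactctcCGTGAGAAgcagcgagagg
Tbrg4, chr11:6626189-6626218, plus strand: gagatcctggtCGTGGGAAacgtagacggg
Zbtb11, chr16:55973578-55973607, plus strand: tttacagagagCGTGGGAAaggaaagggag
Nr4a3, chr4:48044941-48044970, plus strand: cattgtgcggcCGTGAGAAtggccggagga
Aasdh, chr5:76905413-76905442, minus strand: ccacgcgctgtCGTGAGAAggtggggcggg
Dennd4a, chr9:64811769-64811798, plus strand: gcgcgcctccgTGTGGGAAcgagcgcggga
Zfp644, chr5:106696651-106696680, minus strand: cgcgcctgcgcCGTGGGAAccgaggccgga
The sites at Smox, Tpp2, Nr4a3 and Aasdh read GTGAGAA and so do not contain the core TGGGAA. The sites at Tbrg4, Zbtb11, Dennd4a and Zfp644 contain it.

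The base composition that the rule asks for took different forms in different members, as a pair of stretches of 150 bases shows. Both are printed on the plus strand, along which both genes run, lie outside annotated exons, and have every CpG in capitals.
Skil, chr3:31094721-31094870: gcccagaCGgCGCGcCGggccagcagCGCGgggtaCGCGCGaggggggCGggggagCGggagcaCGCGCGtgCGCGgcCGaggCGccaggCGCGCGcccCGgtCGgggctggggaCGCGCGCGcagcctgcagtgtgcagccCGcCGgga
Rara, chr11:98939561-98939710: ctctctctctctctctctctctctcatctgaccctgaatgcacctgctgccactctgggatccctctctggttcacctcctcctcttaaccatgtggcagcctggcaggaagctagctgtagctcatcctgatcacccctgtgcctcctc
The stretch from Skil, which encodes a repressor of TGF-beta signalling, holds 29 CpGs at 84.7% GC. The stretch from Rara, which encodes a retinoic acid receptor, holds 0 CpGs at 56.7% GC.

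Most members were rich in CpG. The members' GC content, which the rule sets, ran from 55.02 to 82.9% with a median of 63.7%. The ratio of observed to expected CpG had a median of 0.822, with quartiles of 0.634 and 0.925, and was 0.6 or more in 338 members (78.6%, Wilson interval 74.5 to 82.2). Among GC-poor peaks of one direction, 131 of 635 (20.6%) reached that ratio. The 79 divergent peaks of 55% GC or more had a median ratio of 0.892, above that of the members. At the edge of the rule, the members Lgals3bp (55.02% GC, score 1069), Hivep1 (55.09%, 611) and 2010315B03Rik (55.1%, 679) lay just inside. The peaks of Kdm3a (54.94%, score 1120), Sp1 (54.92%, 694) and Psme1 (54.8%, 746) lay just outside.

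**Figure D1:**
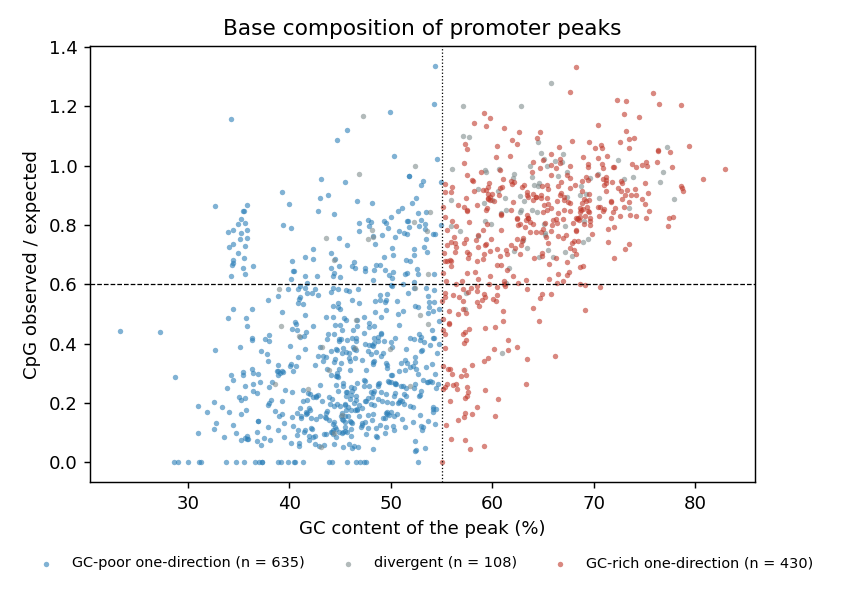
GC content of each promoter peak (x axis, percent) against its ratio of observed to expected CpG (y axis), with the 430 GC-rich one-direction peaks in red, the 635 GC-poor ones in blue and the 108 divergent ones in grey. The dotted line is the GC minimum of 55% and the dashed line a CpG ratio of 0.6, above which 338 of the red points lie.

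GC-rich peaks of one direction lay in the upper part of the list by score more often than GC-poor peaks and divergent peaks of any GC content did. Member scores ran from 333 (Mroh2a) to 3100, with a median of 806 and quartiles of 685 and 985. The median was 719 in GC-poor peaks and 727 in divergent ones. The 79 divergent peaks that met the GC minimum had a median of 757 and quartiles of 661 and 983, closer to the members. A difference in score between the members and these 79 peaks was not tested. Of the members, 285 (66.3%, Wilson interval 61.7 to 70.6) were at or above the median of all nuclear peaks, which is 718, against 321 of 635 GC-poor peaks (50.6%, 46.7 to 54.4) and 56 of 108 divergent peaks (51.9%, 42.5 to 61.0). The odds ratio was 1.92 (1.49 to 2.48) against GC-poor peaks (adjusted p = 9.97e-07) and 1.83 (1.19 to 2.80) against divergent peaks (adjusted p = 0.0125), from two-sided Fisher's exact tests and Benjamini-Hochberg adjustment over 7 comparisons. With the upper quartile of the list as the limit the calls ended, with odds ratios of 1.34 (Fisher adjusted p = 0.0591) and 1.07 (Fisher adjusted p = 0.819). There, 142 members (33.0%) stood beside 171 GC-poor peaks (26.9%). Across the 430 members the score was nearly unrelated to GC content (Spearman rho 0.09) and to the CpG ratio (0.02), values that describe peaks of the same library.

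**Figure D2:**
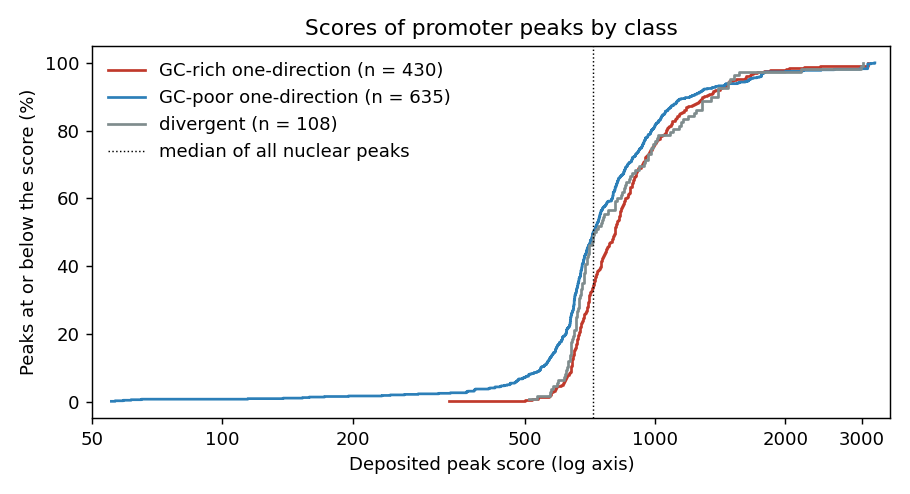
Cumulative share of peaks (y axis, percent) at or below each deposited score (x axis, logarithmic) for the 3 classes of promoter peak. At the dotted line, the median of all nuclear peaks, the red curve of the 430 members lies below the other curves, and the curves meet at high scores.

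Scores in this list are not all separate values. Of the 430 members, 223 (51.9%) had both the score and the width of at least 1 other nuclear peak, as did 55.1% of all nuclear peaks. The largest such set held 26 peaks of score 643 and width 414 bp. The peaks of Upf2 and Axin2, for example, both spanned 193 bp and scored 1373. Members with a shared pair of values had a median score of 725, and those without had one of 904. Without all such peaks, the odds ratio against GC-poor peaks was 3.44 (Fisher adjusted p = 1.43e-09), and that with divergent peaks did not pass (odds ratio 1.67, Fisher adjusted p = 0.259). The part of these shared values in the results was not tested beyond leaving such peaks out. A score of exactly 3100 was held by 36 nuclear peaks, 4 of them members, and 4 nuclear peaks scored higher.

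Most members covered a coding start site, and 170 of 430 did not. The midpoint of a member lay 130 bp from the nearest coding start site at the median (quartiles 48.2 and 289), and that of a GC-poor peak 549 bp. Of the members, 300 (69.8%, Wilson interval 65.3 to 73.9) had the midpoint within 250 bp, against 148 GC-poor peaks (23.3%, 20.2 to 26.8) (odds ratio 7.59, 5.76 to 10.01, Fisher adjusted p = 1.79e-51). The peak itself covered a start site in 260 members (60.5%) and in 120 GC-poor peaks (18.9%). Midpoints were divided evenly between the sides of the start site, with 210 upstream and 219 downstream. Base composition, which the rule uses, is linked to this position. Over all one-direction start sites of the basic annotation, 60.6% of windows of 200 bases centred on the start were 55% GC or more, against 28.2% at 300 bp upstream, 53.7% at 300 bp downstream, 10.5% at 900 bp upstream and 19.96% at 900 bp downstream. The part of this gradient in the difference was not tested.

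**Figure D3:**
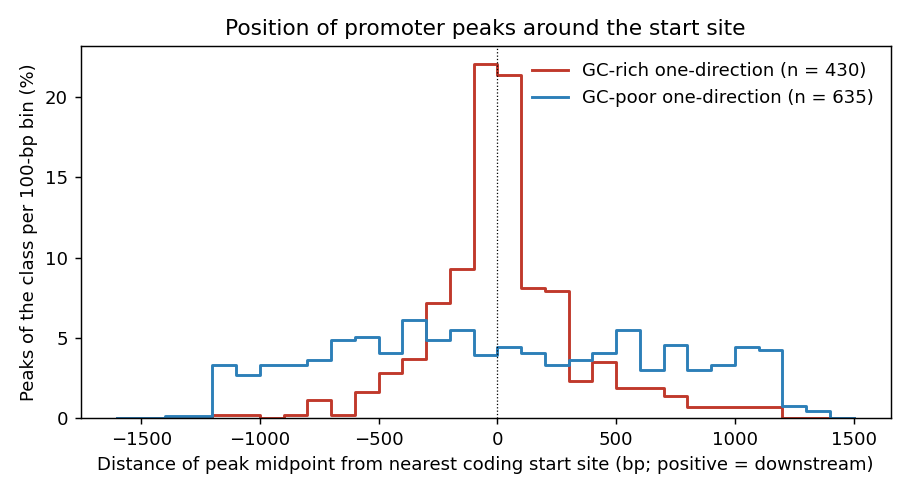
Share of peaks per bin of 100 bp (y axis, percent of the class) by the distance of the midpoint from the nearest coding start site (x axis, bp, positive downstream). The 430 members in red form a narrow peak around 0, and the 635 GC-poor peaks in blue are spread over the whole window.

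Of divergent peaks, 85 of 108 (78.7%) had the midpoint within 250 bp. Their class requires coding start sites on both strands, which can bring the nearest one closer, and the part of this in the comparison was not tested. The odds ratio for members was 0.624 (0.377 to 1.03, Fisher adjusted p = 0.0859), and it passed within 100 bp (0.576, Fisher adjusted p = 0.0151) and under 4 other settings. By annotation, the midpoint of 145 members (33.7%) fell in an exon outside coding sequence, that of 37 (8.60%) in a coding exon, that of 130 (30.2%) in an intron and that of 118 (27.4%) outside genes. More than 1 coding start position lay in the window of 352 members (81.9%, median 3 positions) and of 321 GC-poor peaks (50.6%, median 2). More positions shorten the distance to the nearest one, and the part of this in the comparison of positions was not tested. Genes of 2 or more names lay in the window of 6 members.

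One direction of coding transcription did not mean that no transcript was annotated the other way. A start site of a gene that is not protein-coding lay on the opposite strand within 1 kb of 75 members (17.4%, Wilson interval 14.1 to 21.3). Among them were Zbtb11 with Zbtb11os1, Ino80d with Ino80dos, Tle1 with C630043F03Rik, Bhlhe40 with 0610040F04Rik and Ikzf1 with Gm11999. In GC-poor peaks the share was 75 of 635 (11.8%, 9.53 to 14.6), giving an odds ratio of 1.58 (1.12 to 2.23, Fisher adjusted p = 0.0165). The call ended under 5 of the settings tried, among them the basic annotation (1.24, Fisher adjusted p = 0.317), a window of 500 bp (1.39, 0.116) and peaks at or above the median score (1.41, 0.321).

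Repeat sequence was scarce in the members, and so were peaks of the X chromosome. Soft-masked bases made up 20% or more of 43 members (10%, Wilson interval 7.51 to 13.2), against 246 GC-poor peaks (38.7%, odds ratio 0.176, 0.123 to 0.250, Fisher adjusted p = 1.03e-26) and 8 divergent peaks (7.41%, odds ratio 1.39, 0.633 to 3.05, Fisher adjusted p = 0.468). Interspersed repeats are mostly poorer in GC than CpG islands, so this measure is also tied to the rule. Of the members, 1 lay on X, at Bcor, a co-repressor gene (chromosome X, 12080834). Of 490 genes on X with a GC-rich start site and no coding start on the other strand within 1 kb, 1 (0.204%, 0.0360 to 1.15) had a member, against 401 of 13493 (2.97%) on the autosomes, where the share ran from 1.42% on chromosome 10 to 4.14% on chromosome 17. X held 1.66% of all nuclear peaks and 5 of the 635 GC-poor promoter peaks, so the low number was not confined to the members. The difference was seen in the data and not tested, and the labels do not give the sex of the mice.

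The members of highest score belonged to regulators of transcription and signalling as well as to genes of general cell function. A score of 3100 was held by the peaks of Hivep2, Skil, Lmna and Junb. Hivep2 encodes a zinc finger protein, and its peak spanned 1016 bp (chromosome 10, 13967005 to 13968020) and covered a start site. The midpoint of the Hivep2 peak lay in an intron, 488 bp downstream of the nearest start. The Skil peak was the widest member at 1159 bp (chromosome 3, 31094217 to 31095375), had 80.8% GC and covered a start site, with its midpoint 262 bp upstream. The Lmna peak (chromosome 3, 88509725 to 88510529) lay at a start of the gene of the nuclear lamins A and C. The Junb peak (chromosome 8, 84975986 to 84977037) lay over an annotated start (84976542) of the gene for a subunit of the transcription factor AP-1. The other Junb members, of scores 1266 and 936, lay nearest to an upstream start (84978718). The midpoint of the member of score 1266 lay in a coding exon between these starts. The Junb peak of score 3100 thus lay downstream of it, with its midpoint in an exon outside coding sequence. All 4 peaks of score 3100 held 0 RBPJ cores, as did 71.6% of all members. Smox, which encodes spermine oxidase, followed at 2399 (chromosome 2, 131509578 to 131510325), 999 bp inside the gene from the nearest start, with 2 cores and the 2 longer sites printed above.

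Next came Amz2 (2206), Tpp2 (2089, a peptidase), Mkrn2 (2044) and Hnrnpl (2008, a splicing regulator of lymphocyte transcripts). They were followed by Nfkbid (1840, a nuclear inhibitor of NF-kB proteins), Rara (1784), Dnaja1 (1765, a co-chaperone), Srsf6 (1718, a splicing factor), Mnt (1688, a repressor that competes with MYC) and Tbrg4 (1668). Among these 15 members of highest score, Hnrnpl, Amz2, Nfkbid, Mnt, Smox and Tbrg4 held at least 1 core.

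The 430 members lay at 408 protein-coding genes, which is 1.86% of 21924 such genes. Of the 13987 genes with a GC-rich start site and no coding start on the other strand, 402 (2.87%) had a member. The 23 gene lists compared with these shares were chosen with earlier results of these data known, so their counts are descriptions. They matched 875 of 877 entries to a gene, and 77 of the 408 genes were on at least 1 list, 12 of them on several.

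The list with the highest share was that of genes induced early after receptor stimulation and of their feedback inhibitors, with 14 of 42 (33.3%, Wilson interval 21.01 to 48.4) and a median score of 1001 for the best peak of each gene. All 3 genes of the NR4A family, nuclear receptors induced by antigen receptor signalling, carried members. Nr4a2 had 1 (chromosome 2, 57114719 to 57114946, score 1618), Nr4a3 had 2 (1300 and 633) and Nr4a1 had 3 (1116, 733 and 696). Of AP-1 subunits, Junb had 3 members (3100, 1266 and 936), Fosl2 had 2 (1484 and 723), and Jund (821), Fosl1 (666) and Fos (586) had 1 each. Phosphatases that switch off MAP kinases were represented by Dusp2 (1541 and 762), Dusp1 (886) and Dusp5 (781). Zfp36l1 (1512 and 1410) and Zfp36l2 (657), which encode proteins that promote decay of AU-rich messenger RNAs, and the survival kinase gene Pim1 (705) made up the rest. These 14 genes held 22 members, of which 17 had no RBPJ core, as had 308 of all 430 members (71.6%). Without peaks that share score and width with another, 8 of 42 genes had a member (19.0%), beside 195 of all genes (0.889%).

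Dusp2 was the gene of this list whose best peak held 2 cores. They stand 173 bases apart and point toward each other, as a stretch of 200 bases upstream of the gene shows (plus strand, which is the gene's, capitals for the core on either strand).
Dusp2, chr2:127335773-127335972: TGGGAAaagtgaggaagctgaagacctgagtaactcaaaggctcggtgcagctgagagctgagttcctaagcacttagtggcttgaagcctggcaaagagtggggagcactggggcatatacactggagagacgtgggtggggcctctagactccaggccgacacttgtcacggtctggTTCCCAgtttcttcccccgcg

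Several members at 1 gene were not rare. Of the 408 genes, 25 had 2 or 3 members, and 73 of the 430 members (16.98%) had another peak of the list within 1 kb. The gap was 4 bp between a pair of Junb peaks, 12 bp at Tardbp, 26 bp at Kat6a, 45 bp at Hivep2, 58 bp at Hnrnpl and 91 bp at Zfp36l1. Counts of genes are therefore used for the lists, not counts of peaks.

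Chromatin regulators came next, with 17 of 69 genes (24.6%, 15.99 to 36.0) and a median score of 816. They included the histone demethylase genes Kdm3b (1416) and Kdm2a (728), the methyltransferase genes Nsd1 (1146), Nsd2 (811), Nsd3 (656), Dot1l (946), Ezh2 (704) and Kmt2e (680), and the acetyltransferase genes Kat6a (1109 and 685), Kat7 (842) and Kat8 (724). The remaining ones were the deacetylase genes Hdac5 (944) and Hdac4 (582), the DNA demethylation gene Tet3 (874), and the remodeller genes Smarcc1 (867), Arid1a (816 and 699) and Chd4 (646). Of these 19 members 16 had no core, beside 71.6% of all members, and those of Hdac5 and Smarcc1 and the weaker one of Kat6a held a core and a longer consensus. Without peaks of shared score and width, 10 of 69 genes had a member (14.5%), beside 0.889% of all genes.

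Among regulators of the T lineage 8 of 44 genes (18.2%, 9.51 to 32.0) had a member. They were Zfp36l1, Tcf3 (1470, an E protein), Nr4a1, Ikzf1 (957, Ikaros), Fli1 (778, an ETS factor), Lef1 (685), Zfp36l2 and Runx1 (649). Of T cell receptor signalling genes 5 of 39 (12.8%, 5.60 to 26.7) had one. These were the adaptor gene Lat (chromosome 7, 126369226 to 126369639, score 1464), Nfatc3 (852), the kinase genes Blk (769) and Lck (593), and Cd247 (723), which encodes the CD3 zeta chain. Of cytokine and NF-kB genes 5 of 44 (11.4%, 4.95 to 24.0) had one, among them Nfkbid, Birc3 (931), Stat3 (703) and Relb (682). TGF-beta and Smad genes gave 4 of 23 (17.4%, 6.98 to 37.1) with Skil, Tgif1 (815 and 588), Bmpr1a (679) and Smad3 (641). Without peaks of shared score and width the TGF-beta count was 1 of 23 (4.35%) and that of cytokine and NF-kB genes 3 of 44 (6.82%). The share of all genes was then 0.889%. With a GC minimum of 60%, 1 of 39 T cell receptor genes and 3 of 44 T lineage genes had a member. Of all 21924 genes, 280 then had one, down from 408.

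The effector programs of gamma delta T cells gave unequal counts, a difference that was not tested and that depended on the settings. Of 29 genes of the interleukin-17 program 5 (17.2%, 7.60 to 34.5) had a member, namely Hes1, Blk, Stat3, Relb and Runx1, and all but Hes1 were also on the lists above. Of 30 genes of the interferon-gamma program 1 (3.33%, 0.591 to 16.7) had one, Nfatc3, and that interval includes the background. With a GC minimum of 60% the counts were 1 and 0, and in the upper part of the list by score (median or higher) 2 and 1. Those settings also lowered the number of all genes with a member, from 408 to 280 and 277. The promoter peak of Tbx21, which encodes T-bet, was no member, since its GC content was 44.6%. Counting every class of promoter peak, 7 and 5 genes of these programs had one. The background covers members only and does not apply to these last counts, for which no share of all genes was computed.

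**Figure D4:**
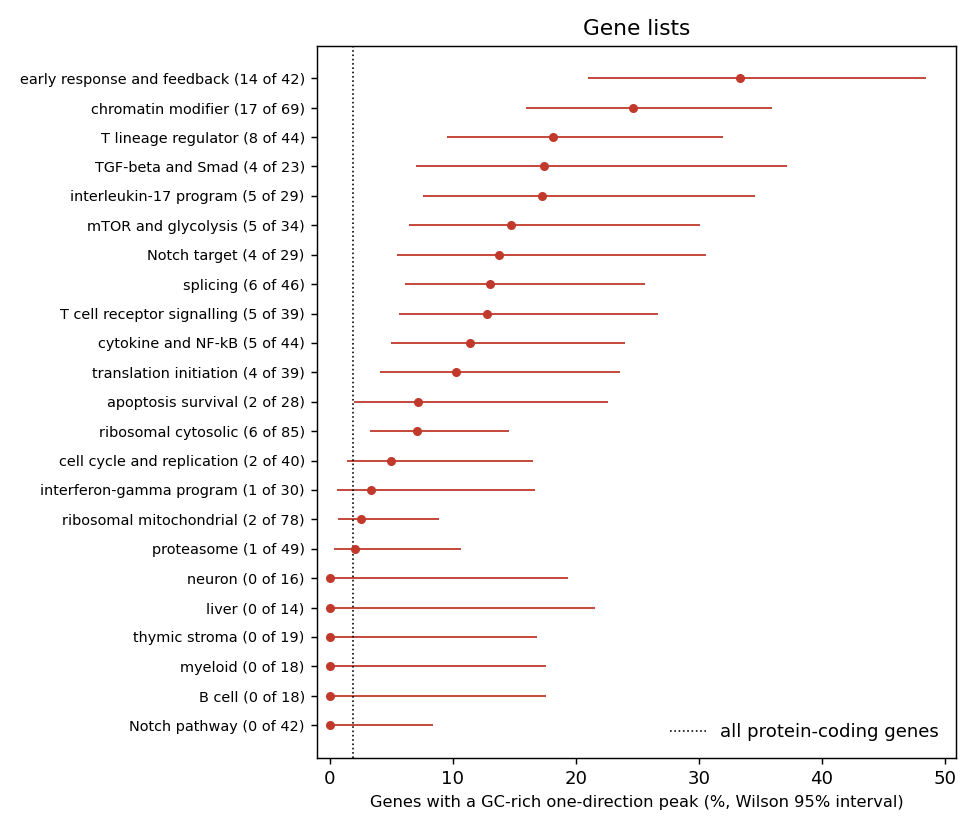
Share of each list's genes with a GC-rich one-direction promoter peak (x axis, percent, with Wilson 95% intervals), with counts beside the list names. The dotted line is the share of all protein-coding genes (1.86%), and the early response list (33.3%) and the chromatin list (24.6%) lie farthest to its right.

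Of splicing factors 6 of 46 (13.0%, 6.12 to 25.7) had a member, and their median score of 1048 was high because of Hnrnpl (2008, 1284 and 661), Srsf6, Srsf10 (1068) and Hnrnpu (1029). Translation factors gave 4 of 39 (10.3%, 4.06 to 23.6), with Eef1a1 (996) and Eif4a1 (860) the strongest. Cytosolic ribosomal protein genes gave 6 of 85 (7.06%, 3.28 to 14.6), with scores from Rps3 (929) and Rps10 (829) to Rpl37 (665). Nutrient signalling and glycolysis gave 5 of 34 (14.7%, 6.45 to 30.1), among them Pik3cd (867) and Gapdh (806). The intervals of mitochondrial ribosomal proteins (2 of 78, 2.56%, 0.706 to 8.88), proteasome genes (1 of 49, 2.04%, 0.361 to 10.7) and replication and cell cycle (2 of 40, 5%, 1.38 to 16.5) included the background. Survival genes gave 2 of 28 (7.14%, 1.98 to 22.6). That interval lies just above the 1.86% of all genes. It includes the 2.87% of genes with a GC-rich start site and no coding start on the other strand.

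Known Notch targets were represented by 4 of 29 genes (13.8%, 5.50 to 30.6). The count was 1 in the upper part of the list by score (median or higher), where 277 of all genes had a member, down from 408. It was 2 without peaks of shared score and width, where 195 of all genes had one. Among the 4 targets Hes1, a repressor and classical target, had the highest score (1057, chromosome 16, 30064211 to 30064730, 63.5% GC), followed by Lef1, Relb and Runx1. All 4 peaks held 0 cores, as did 308 of all 430 members (71.6%). The Hes1 member lay 86 bp from the nearest start of any Hes1 transcript, since the rule counts every transcript of a coding gene. The promoter peaks of Il2ra (43.4% GC, 3 cores) and Gata3 (50.4% GC, 1 core) fell below the GC minimum. Of 42 genes of the Notch pathway itself 0 had a member, which allows a share of up to 8.38% by the Wilson interval, and Dll1 and Dll4 had no promoter peak under the rule. With every class of promoter peak counted, 4 of these 42 genes and 7 of the 29 Notch targets had one. The share of all genes with a promoter peak of any class was not computed. The background of members does not apply to these counts. The 5 lists that stand for other cells (neurons, liver, stroma of the thymus, myeloid and B cells) gave 0 of 85 genes, which allows a share of up to 4.32% by the Wilson interval, a limit above the background of 1.86%. Of these 85 genes, 60 had a GC-rich start site and no coding start on the other strand. Among all genes with such a start site, 2.87% had a member.

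The RBPJ core was found in 122 members (28.4%, Wilson interval 24.3 to 32.8) over the whole peak, the longer consensus in 31 (7.21%, 5.13 to 10.1), and neither in 303 (70.5%). To compare regions of equal length, the central 200 bp of each peak were set beside windows of 200 bases on start sites of 12384 GC-rich one-direction promoters with no peak. The core was present in 63 members (14.7%, 11.6 to 18.3) and in 13.5% of promoters with no peak (12.9 to 14.1). The longer consensus was present in 14 members (3.26%, 1.95 to 5.39) and in 2.11% of those promoters (1.87 to 2.38). Windows on the start sites nearest to the members gave 11.1% for the core and 3.55% for the longer consensus. For the core, the interval at member centres included the value of promoters with no peak. For the longer consensus it did too, while the interval around the members' start sites (2.17 to 5.78) lay just above it. These shares rest on 14 and 15 windows and were not tested.

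Copies of the core in the same member were mostly far apart. In all, 18 members (4.19%) held 2 or more cores, with Tbrg4 and Arid3a holding 3. The distance between neighbouring cores ran from 1 base at Cul7, 6 at Arid3a, 13 at Rps3 and 20 at Tbrg4 to 238. Pairs of RBPJ sites that face each other with 15 to 17 bases between them are a known arrangement for dimers of the Notch complex. With either form of the site, 0 of 430 members (up to 0.886% by the Wilson interval) and 2 of 5910 nuclear peaks held such a pair. Only these letters were searched, on both strands.

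Motifs of other families were compared with the 79 divergent peaks of 55% GC or more, which share the GC minimum. None of 15 motifs passed by two-sided Fisher's exact tests over the central 200 bp, and the smallest unadjusted p was 0.107. With so few divergent peaks the intervals were wide. The ETS motif CCGGAAR was present in 13.7% of members and 20.3% of GC-rich divergent peaks (odds ratio 0.626, 0.339 to 1.16), and over the whole peak that difference passed (0.438, Fisher adjusted p = 0.0344). The RUNX motif TGYGGT was present in 14.7 and 12.7% (1.18, 0.579 to 2.42). The GC box GGGCGG, read by SP and KLF factors, was present in 50.5 and 41.8% (1.42, 0.874 to 2.31). CCAAT, bound by NFY, was present in 16.3 and 24.1% (0.614, 0.345 to 1.09). The motif of NF-kB was present in 11.6 and 5.06% (2.47, 0.865 to 7.04).

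Against promoters with no peak, the outcome turned on where the window was laid. Around peak midpoints the GC box lay in 50.5% of members (45.8 to 55.2), CCAAT in 16.3% (13.1 to 20.1) and the NF-kB motif in 11.6% (8.93 to 15.003), beside 59.97, 24.6 and 8.16% of the promoters with no peak. Around the members' own start sites the values were 62.3% (57.6 to 66.8), 20.9% (17.2 to 24.98) and 8.29% (6.02 to 11.3). ETS and RUNX motifs lay in 14.2 and 13.9% of the promoters with no peak, close to the members. The median GC content was 64.5% in the members' central windows, 67% on their start sites and 65.5% in promoters with no peak. These shares were not tested.

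**Figure D5:**
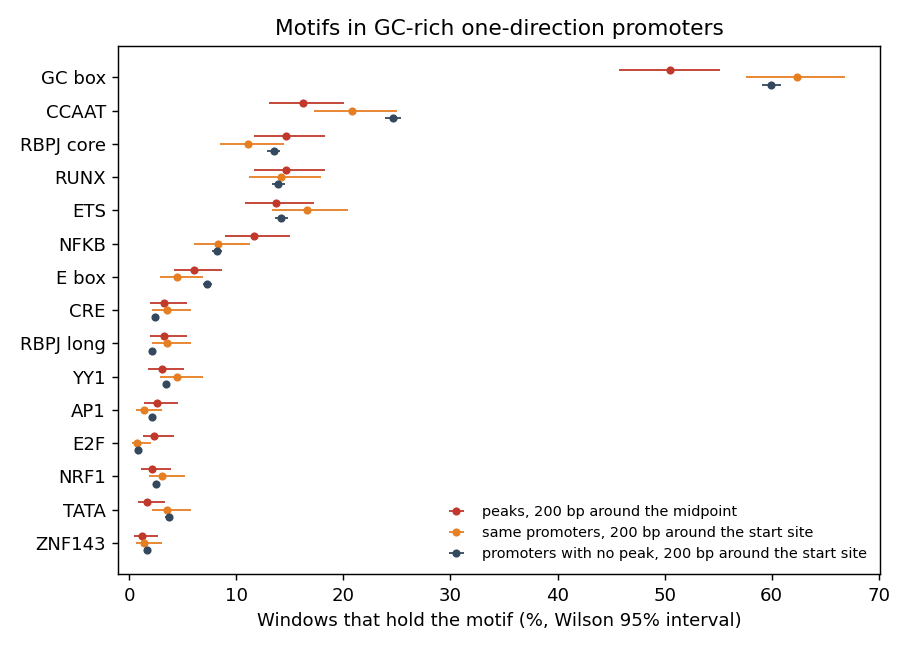
Share of windows of 200 bases that hold each of 15 motifs (x axis, percent, with Wilson 95% intervals), for the centres of the 430 members (red), for the 422 different start sites nearest to them (orange) and for 12384 GC-rich one-direction promoters with no peak (dark). For most motifs the 3 points lie close together, and for the GC box the red point (50.5%) lies left of the others (62.3 and 59.97%).

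A smaller set of 92 members (21.4%) was GC-rich but had a CpG ratio under 0.6, a split made after the values were seen and given without a test. These members lay farther from start sites, with a median distance of 273 bp against 102 bp for the other 338 members, and 34 of them (37.0%) covered one, against 226 (66.9%). Their scores were much the same, with a median of 752 against 812, and 64.1 against 66.9% were at or above the median of the list. The GC box was present in 26.1% of them and 57.1% of the others, the RBPJ core in 20.7 and 13.0%, and the CRE motif TGACGTCA in 0 and 14 members. Examples chosen after their values were seen were Lat (CpG ratio 0.357), Blk (0.0440), Cd247 (0.329), Lck (0.249), all of T cell receptor signalling, and Dock2 (0.310, score 1177), which encodes an activator of Rac in lymphocytes. The remaining T cell receptor gene with a member, Nfatc3, had a ratio of 0.610 and was among the other 338. Lmna (0.498), Smox (0.313), Rara (0.245), Jakmip1 (0.236, score 1665) and Dusp2 (0.544) were those of highest score among the 92.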

How the data were processed

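The Notch1 library of gamma delta T cells is represented by a deposited peak list, and the authors' score is its only measured value. Per the submitters' processing notes, Bowtie 1.0.0, SAMtools 0.1.18 and build mm10 were used. Peak names start with MACS, per the deposited file, but its settings, the role of the input and the meaning of the score are not stated. The library was amplified by PCR without molecular identifiers, per the labels' protocols, so intervals cover counting error only. Peaks (1-based) were set on GRCm38 with GENCODE M21, with 0 of them past a chromosome end, and 3 mitochondrial peaks were left out. GC content, CpG ratio, soft-masked share and motifs came from the genome sequence. Fisher's exact test, two-sided, compared classes (SciPy 1.17.1) with Benjamini-Hochberg adjustment over 7 comparisons or 15 motifs and a threshold of 0.05. Shares carry Wilson 95% intervals. The scan, classes and tests were tested on simulated data. Named genes were the 15 members of highest score, up to 5 per list by score (all members of a list where the count is described), those with RBPJ sites, and fixed genes. Others named as examples were chosen after their values were seen. The members, lists and tests were chosen with earlier results of these data known. A gene that the rule for named genes takes is not reported here.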

Additional observations from a re-analysis of the deposited data

How the results depend on the processing

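Alternatives changed the promoter window, the overlap, the GC minimum, the annotation, the score threshold, the limits of each measure and the part of the peak scanned, and 1 set, added after seeing the data, left out peaks that share score and width with another. The number of members was 285 at or above the median score and 207 without shared values, with 195 genes. Other settings kept it within 1.5 times of 430. The higher scores ended as a call in the upper quartile (odds ratio 1.34 against GC-poor and 1.07 against divergent peaks) and, against divergent peaks, with a GC minimum of 50% (1.53, Fisher adjusted p = 0.0622) and without shared values (1.67). Position against divergent peaks passed with a GC minimum of 50% (0.447), basic transcripts (0.553), midpoints in the window (0.550), 100 bp (0.576) and a window of 500 bp (0.322). The opposite-strand noncoding starts did not pass with a GC minimum of 60% (1.42), basic transcripts (1.24), the upper part by score (1.41), a window of 500 bp (1.39) or without shared values (1.26). Repeat content against divergent peaks turned at a soft-masked share of 50% (0.758), and passed in neither case. Against GC-poor peaks the higher scores had an odds ratio of 3.44 without shared values. Of the counts of gene lists under these settings, 12 fell outside the Wilson interval given in the report for that list. Over the whole peak 1 motif passed in place of 0. The odds ratio turned for the GC box with a GC minimum of 50% (0.936), and for RUNX with 60% (0.912), in the central 100 bp (0.642) and in the upper part by score (0.864), none of them passing. The comparisons of position and repeat content with GC-poor peaks kept their side of the threshold in every setting. Both measures are linked to the GC content that the rule uses, and none of the settings removed that link. No paired analysis was possible because each antibody group has 1 library. The cause of these changes was not tested.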
